A study of Mus musculus with 2 samples.

Results

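The genes examined here encode enzymes and receptors of the prostaglandin and leukotriene pathway. They were the rows of both deposited count matrices whose symbol was Ptgs1, Ptgs2, Ptges, Ptgds, Ptgis, Ptger2, Ptger3, Ptger4, Alox5 or Ltc4s, which is 10 of 33904 gene rows, and all 10 had transcripts counted in both libraries. The study profiled cells of mouse dorsal skin by single-cell RNA sequencing, to see how the cells of atopic dermatitis (AD)-like skin differ from those of control skin. All mice were female C57BL/6J, 7 weeks old, and were depilated with Nair the day before the first application. The AD group received MC903 (calcipotriol, a vitamin D analogue that induces AD-like inflammation) on the back skin at 4.5 nmol per application daily for 10 days, the Ctrl group received the ethanol vehicle, and skin was taken on day 10. Each group was 1 library, and the number of mice behind a library is not given in the sources used here. No difference between the groups can therefore be tested. Intervals below are exact 95% intervals (Poisson for a level, Clopper-Pearson for a share of cells, conditional binomial for a ratio of levels) and cover counting error only, not the spread between mice. Intervals of co-detection ratios are described where they are given.

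The unit counted was the unique molecular identifier (UMI), which stands for 1 captured transcript, and a level is given as CPM, the summed UMIs of a gene over a group of cells divided by all UMIs of those cells and multiplied by 1000000. The Ctrl library kept 11399 of 12598 barcodes with a median of 7813 UMIs per cell, the AD library kept 8179 of 8778 with a median of 6330, and 35 barcode sequences occurred in both. Cells were clustered without the pathway genes, and each cluster was named as like a cell type from its marker genes. Dermal fibroblasts (dFBs) were the largest class, with 5945 Ctrl and 4721 AD cells, and keratinocytes (KCs) numbered 2263 and 413. dFBs of the libraries lay in different clusters (0, 3, 4, 6 and 9 mostly Ctrl, and 1, 2, 5 and 15 mostly AD), so that library and cluster cannot be told apart for most dFBs. The AD KCs were 369 basal, 42 suprabasal and 2 hair follicle cells, against 904, 505 and 854 in Ctrl. Cluster 7 (12 Ctrl and 717 AD cells) had under 3 markers of any type and is given by number. Cluster 13 (462 and 106 cells, led by the antigen presentation genes H2-Ab1 and Cd74) had all 4 Langerhans cell markers (Cd207, Epcam, Mfge8 and Cd74) but was a near tie with the dendritic cell list (scores of 19.1 and 18.4), so it too is given by number.

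Prostaglandins are lipid mediators made from arachidonic acid. The cyclooxygenases, encoded by Ptgs1 (COX-1, usually constitutive) and Ptgs2 (COX-2, inducible by cytokines and injury), convert it into an unstable endoperoxide, which terminal synthases turn into prostaglandin E2 (Ptges), prostaglandin D2 (Ptgds) or prostacyclin (Ptgis). Prostaglandin E2 acts through G protein-coupled receptors, of which EP2 (Ptger2) and EP4 (Ptger4) raise cyclic AMP and EP3 (Ptger3) mostly lowers it. In the other branch, 5-lipoxygenase (Alox5) and leukotriene C4 synthase (Ltc4s) make the leukotrienes, which are classical products of mast cells, macrophages and granulocytes. In skin, prostaglandin E2 and the leukotrienes are known mediators of inflammation, itch and vascular tone.

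The 10 genes divided between a few cell types (the dot plot by cell class). In Ctrl skin, dFBs held 79.1% of the library's Ptgs2 UMIs, 70.3% of Ptges, 93.6% of Ptgis, 86.6% of Ptger3 and 50.3% of Ptger4, while KCs held 82.9% of Ptgs1 and melanocytes 87.3% of Ptgds. Ltc4s was held mostly by macrophages (61.9%), and Alox5 by macrophages (42.7%) and cluster 13 (44.5%). In AD skin, dFBs still held most of Ptgs2 (62.3%), Ptges (69.9%), Ptgis (95.5%) and Ptger4 (57.2%), and macrophages held 18.6% of Ptgs2 in place of 1.35%. The KC share of Ptgs1 was 12.2% in AD, below the 28.5% of dFBs, the 19.4% of endothelial cells and the 18.8% of cluster 7. The dFB share of Ptger3 was 12% in AD, where adipocytes held 34.6%. These shares move with the number of cells recovered from each class as well as with the level per cell.

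**Figure D1:**
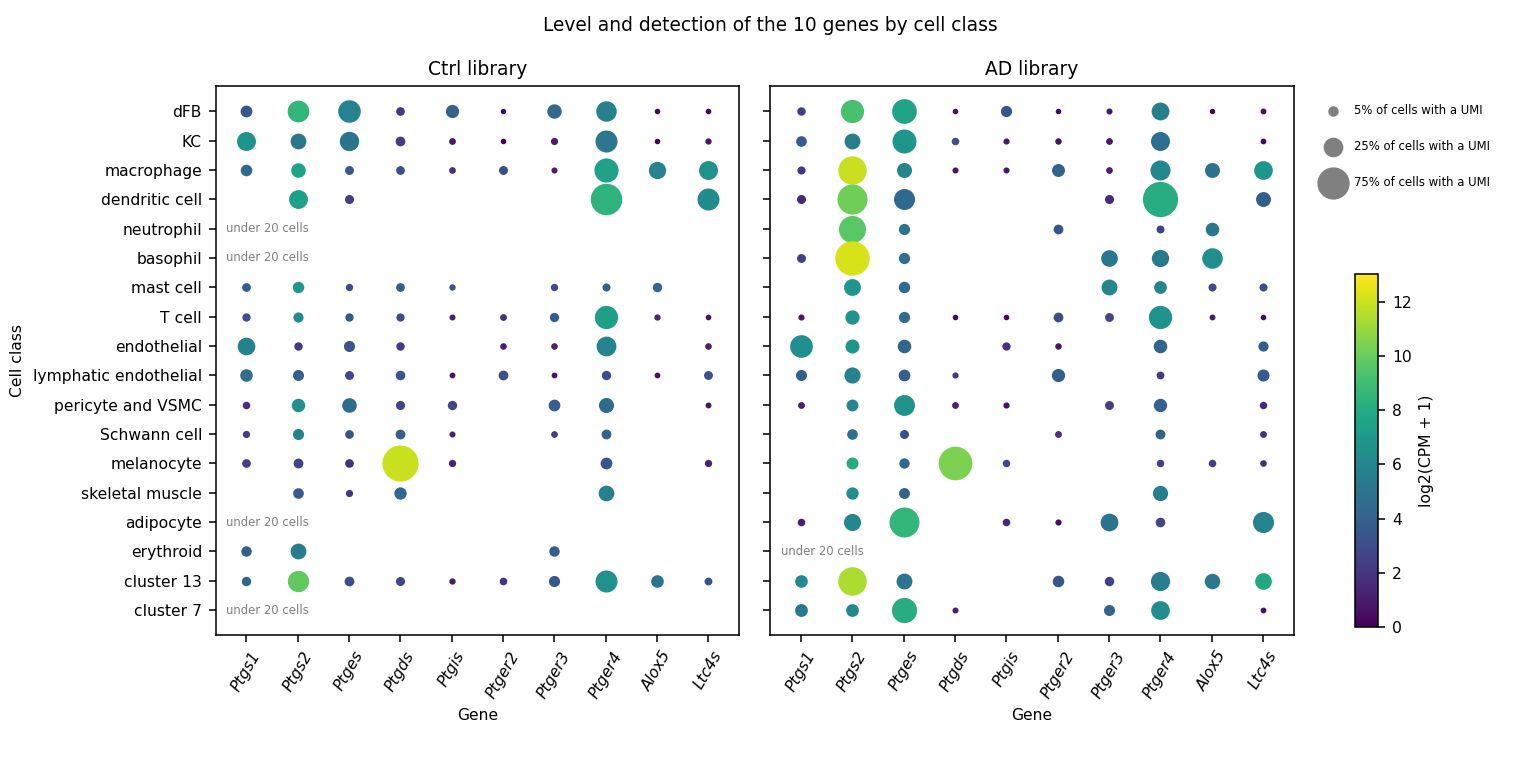
Level and detection of the 10 genes in each cell class, in the Ctrl and AD libraries (1 panel each). Point size is the share of cells with at least 1 UMI in percent and colour is log2(CPM + 1) of the summed UMIs. Ptgs2 and Ptger4 were detected in most classes, while Ptgds in melanocytes and Ptgis in dFBs were narrower. Alox5 and Ltc4s were found mostly in macrophages and other myeloid cells, with Ltc4s also in AD adipocytes.

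Between the libraries, a gene was counted as higher or lower in AD when its CPM in a class differed at least 2-fold, with at least 10 CPM in either library and at least 50 cells in both. In dFBs, 5 of the 10 genes reached that level, of which Ptges was higher and Ptger3 lower, where 7.35% of all genes with that level were higher and 15.1% lower (22.5% in either direction). In KCs, 4 reached it, Ptges was higher and Ptgs1 lower, against 6.05% and 12.4% of all genes. In macrophages, 7 reached it, with Ptgs2, Ptges and Ptger2 higher and Ptger4 and Ptgs1 lower, against 7.73% and 14.7%. In cluster 13, 8 reached it, with 5 higher and 2 lower, against 8.83% and 9.23%. In T cells, 1 of 4 was higher and 1 lower, where the shares over all genes were 2.9% and 8.87%. In endothelial cells, 3 of 5 were higher and 1 lower, against 5.83% and 14.9%. In lymphatic endothelial cells 2 of 5 were higher and 0 lower (3.9% and 8.87%), and in pericytes and vascular smooth muscle cells (VSMCs) 1 of 4 was higher and 1 lower (7% and 12.8%). In melanocytes 2 of 3 were higher and 1 lower (20.6% and 18.8%), in skeletal muscle cells 1 of 4 was higher and 0 lower (11.7% and 10.6%), and in Schwann cells 0 of 3 were higher and 0 lower (8.42% and 13.3%). The median log2 ratio of AD over Ctrl was −0.13 for the 5 genes in dFBs and −0.12 over all 9166 genes there. In macrophages it was 0.22 for the 7 genes and −0.11 over all 8599, and in KCs it was −0.08 for the 4 genes and −0.14 over all 9286.

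The promoters of the cyclooxygenases and of Ptges are shown because these 3 genes encode the enzymes whose levels and co-detection are described most fully here. Ptgs1 was lower in AD KCs, Ptgs2 higher in AD macrophages and Ptges higher in several AD classes. The sequences are the 250 bases before the RefSeq start site on GRCm38.p6, written 5′ to 3′ on the gene's strand, at chr2:36230176-36230425 (plus strand) for Ptgs1, chr1:150099781-150100030 (plus strand) for Ptgs2 and chr2:30903298-30903547 (minus strand) for Ptges. Capitals mark matches to the motifs searched, on either strand, in the window from 250 bases before to 50 after the start: the GC box GGGCGG, the C/EBP palindrome TTGCGCAA, the CRE half-site CGTCA, the E-box CACGTG and TATAA.
Ptgs1: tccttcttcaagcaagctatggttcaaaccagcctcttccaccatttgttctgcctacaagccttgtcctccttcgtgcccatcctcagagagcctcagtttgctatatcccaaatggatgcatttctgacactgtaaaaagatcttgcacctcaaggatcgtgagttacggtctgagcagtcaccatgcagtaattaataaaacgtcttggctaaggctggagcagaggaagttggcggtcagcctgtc
Ptgs2: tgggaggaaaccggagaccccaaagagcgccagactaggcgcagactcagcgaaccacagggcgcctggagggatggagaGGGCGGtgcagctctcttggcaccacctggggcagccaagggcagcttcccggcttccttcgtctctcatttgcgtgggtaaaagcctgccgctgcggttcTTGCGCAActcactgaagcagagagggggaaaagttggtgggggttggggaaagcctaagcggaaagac
Ptges: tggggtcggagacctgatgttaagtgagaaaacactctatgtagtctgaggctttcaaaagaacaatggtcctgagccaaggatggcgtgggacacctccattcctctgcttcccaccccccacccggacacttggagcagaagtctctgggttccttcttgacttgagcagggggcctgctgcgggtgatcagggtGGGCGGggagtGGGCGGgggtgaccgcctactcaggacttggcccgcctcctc
The Ptgs1 window held none of the 5 motifs, and GC content before the start was 48% for Ptgs1, 61.6% for Ptgs2 and 59.6% for Ptges. The Ptgs2 window held a GC box 170 bases before the start and a TTGCGCAA 69 bases before it, and its CGTCA (14 bases after the start) and CACGTG (17 bases after) overlapped. TTGCGCAA occurred in 60 of 32851 promoter windows (0.183%), CACGTG in 7.15% and CGTCA in 20.8%. Ptges held GC boxes 53 and 42 bases before the start, a motif present in 35.7% of windows. TATAA, which none of the 3 held, occurred in 24.9%. Windows were found for 9 of the 10 genes, all but Ptgis, and a match describes the letters only.

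Ptgs2 had the most UMIs of the 10 genes. Over all cells it stood at 247 CPM in Ctrl against 560 CPM in AD. In dFBs it was 375 CPM (370 to 380, 20514 UMIs) in Ctrl skin and 600 CPM (592 to 608, 21504 UMIs) in AD skin, a log2 ratio of 0.68 (0.65 to 0.71), under the 2-fold limit. At least 1 UMI was found in 31.2% of Ctrl dFBs (median 8471 UMIs per cell) and in 36.5% of AD dFBs (median 6896). T cells, taken as the class that should lack the gene, showed 4.65% and 11.6% (median 3039 and 5165), and the T cell level of 70.3 and 105 CPM lay somewhat above the 51.4 and 69.8 CPM that dFB RNA would give. With each cell thinned to 1000 UMIs the dFB shares were 14.1% and 19.5%, and those of T cells 1.32% and 6.11%.

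The level of Ptgs2 was set by a minority of dFBs in both libraries. Cells with at least 10 Ptgs2 UMIs were 9.92% of Ctrl dFBs and 11% of AD dFBs, and they held 81.9% and 83.7% of the dFB UMIs of the gene. The highest cell had 152 UMIs in Ctrl and 232 in AD.

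Macrophages (cluster 11, 419 Ctrl and 221 AD cells) showed the widest gap in Ptgs2 among the classes with more than 200 cells in both libraries. The level was 192 CPM (173 to 214, 350 UMIs) in Ctrl skin and 3823 CPM (3730 to 3918, 6406 UMIs) in AD skin, a log2 ratio of 4.31 (4.16 to 4.47) or 19.9-fold. Cells with a UMI were 12.2% in Ctrl (median 3902 UMIs) and 57.0% in AD (median 6273), against 4.65% and 11.6% of T cells, and 5.67% and 48.1% after thinning. Cells with at least 10 Ptgs2 UMIs were 1.91% and 39.8% of macrophages. The amount of dFB RNA in macrophages, estimated from 7 dFB marker genes, would give 35.4 CPM of Ptgs2 in Ctrl and 67.2 CPM in AD, far under the AD level. With 5 other definitions of the macrophages the log2 ratio was smaller, at 2.20 to 2.86. Dendritic cells, with 31 cells in each library, stood at 166 CPM (119 to 226) in Ctrl and 1112 CPM (1021 to 1209) in AD, and cluster 13 at 902 CPM and 2665 CPM, a log2 ratio of 1.56.

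Granulocytes were sparse but rich in Ptgs2. The 65 AD basophils had 4754 CPM (4545 to 4970), the highest level of any class with at least 50 cells in a library, and 86.2% of them had a UMI. The 13 Ctrl basophils had 6888 CPM, from 237 UMIs in all, and the 10 highest cells held 100% of them. The 49 AD neutrophils had 792 CPM (676 to 923), with a UMI in 51.0% of cells. The 8 Ctrl neutrophils had 2601 CPM from 112 UMIs. Both Ctrl levels lay above those of AD but rest on few cells, and neither class had the 50 cells per library needed for a call. KCs were low in both libraries, with 36.3 CPM in Ctrl and 46.2 CPM (log2 ratio 0.35) in AD skin, of which 15.5 and 16.5 CPM is the estimate for dFB RNA. In lymphatic endothelial cells the levels of 13.9 and 54.7 CPM were close to the dFB RNA estimates of 23.2 and 51.5 CPM. In AD endothelial cells, 128 of the 142 Ptgs2 UMIs came from 1 cell, and in AD melanocytes 93.6% of the 110 UMIs came from 2 cells, so that the higher AD values in these classes (log2 ratios 4.87 and 5.50) rest on those cells.

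**Figure D2:**
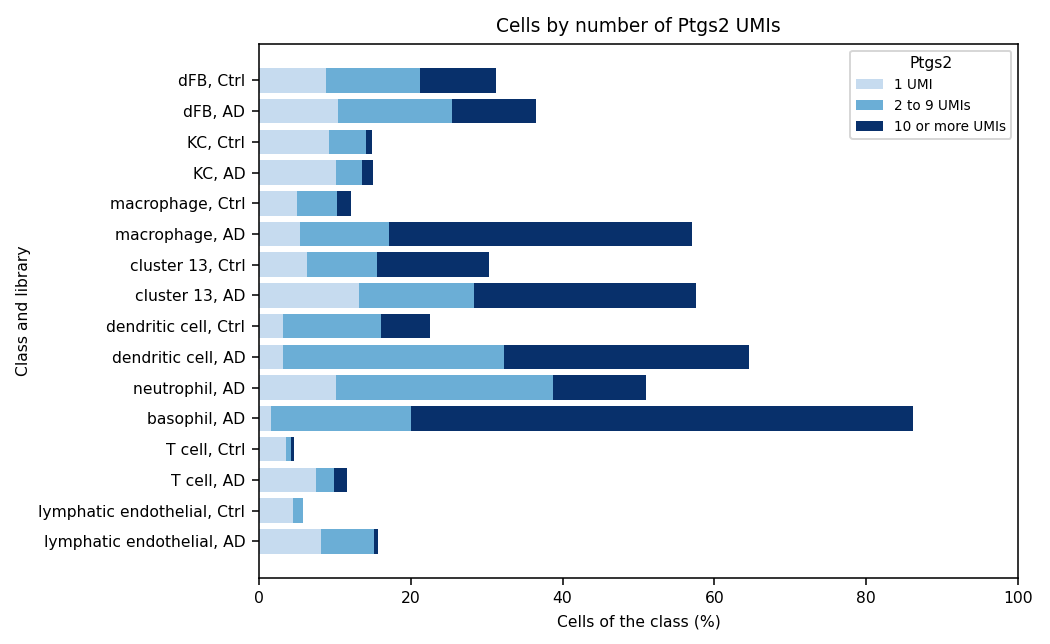
Share of cells in percent, by class and library, with 1, with 2 to 9 and with 10 or more Ptgs2 UMIs (stacked bars from 0). In AD, 66.2% of basophils and 39.8% of macrophages had 10 or more, against 11% of dFBs.

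Ptgs1 was mainly a gene of differentiated KCs in Ctrl skin. KCs had 106 CPM (103 to 110, 3634 UMIs) in Ctrl skin and 11.9 CPM (9.25 to 15.1, 68 UMIs) in AD skin, a log2 ratio of −3.16 (−3.52 to −2.81) or 8.91-fold lower. A UMI was found in 22.9% of Ctrl KCs (median 14418 UMIs) and in 5.33% of AD KCs (median 10012), against 2.43% and 0.477% of T cells. Suprabasal KCs of the Ctrl library held 354 CPM, with a UMI in 79.4% of 505 cells, while basal KCs held 19.5 CPM and hair follicle KCs 1.16 CPM. In AD, basal KCs held 6.52 CPM (4.54 to 9.06), below the Ctrl basal level. The 42 AD suprabasal cells held 102 CPM (70.5 to 144) from 33 UMIs in 5 cells, and their median depth was 906.5 UMIs against 17844 in Ctrl. The part of the small number of suprabasal cells in the overall KC value was not tested. With all deposited barcodes the KC log2 ratio was −1.69.

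Vascular cells were the next site of Ptgs1. Endothelial cells had 50.2 CPM (35.8 to 68.3) in Ctrl skin and 84 CPM (68.9 to 101) in AD skin, with a UMI in 19.5% and 34.6% of cells (median 5633 and 9145 UMIs), against 2.43% and 0.477% of T cells. Lymphatic endothelial cells had 24.5 CPM in Ctrl against 14 CPM in AD, and dFBs 9.54 and 4.44 CPM. In macrophages Ptgs1 was lower in AD (19.2 CPM from 35 UMIs against 3.58 CPM from 6 UMIs, log2 ratio −2.43), and in cluster 13 it was higher (17.4 against 69.5 CPM, log2 ratio 2.00), where the 10 highest AD cells held 100% of the UMIs. The macrophage direction turned under 4 other ways of defining the cells, with log2 ratios of 0.42 to 0.53.

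**Figure D3:**
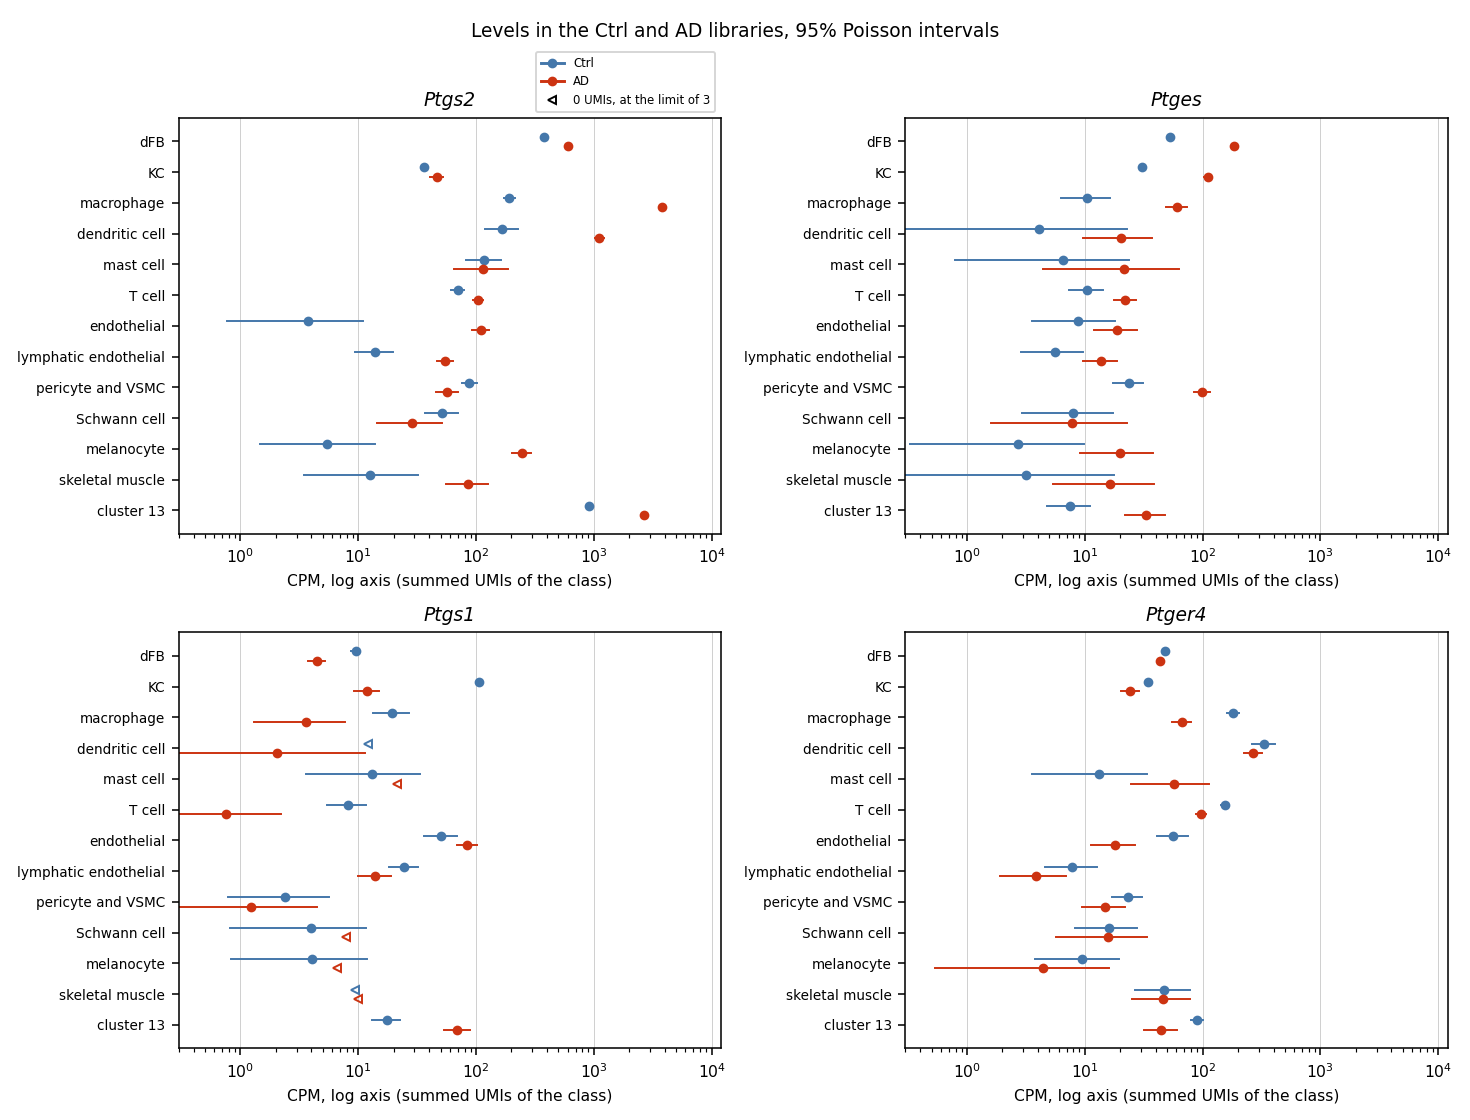
Level of Ptgs2, Ptges, Ptgs1 and Ptger4 by cell class in CPM (log axis), Ctrl in blue and AD in red, with exact 95% Poisson intervals as bars (open triangles stand for 0 UMIs, drawn at the limit of 3 UMIs). Ptges lay higher in AD in most classes, Ptgs1 of KCs lower, and Ptgs2 of macrophages far higher.

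Ptges, the inducible prostaglandin E2 synthase that works with COX-2, was higher in AD in several cell types. In dFBs it was 53.1 CPM (51.1 to 55.0, 2904 UMIs) in Ctrl skin and 183 CPM (179 to 188, 6567 UMIs) in AD skin, a log2 ratio of 1.79 (1.73 to 1.85) or 3.45-fold. A UMI was found in 34.1% of Ctrl and 41.8% of AD dFBs, and in 4.70% and 11.9% after thinning, against 2.43% and 6.20% of T cells unthinned. In KCs it was 30.7 CPM in Ctrl against 111 CPM in AD, a log2 ratio of 1.85 (1.71 to 1.99), while dFB RNA would give 5.03 CPM in the AD cells. Basal KCs alone had 33.2 and 104 CPM, a gap of similar size without the other KC layers. Pericytes and VSMCs had 23.6 CPM in Ctrl against 98.6 CPM in AD, with 28.4 CPM as the AD estimate for dFB RNA. Macrophages had 10.4 and 60.3 CPM, with an AD estimate of 20.5 CPM, and the 10 highest AD cells held 75.2% of their UMIs.

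The highest Ptges levels among the classes were in cells recovered almost only from AD skin. The 178 AD adipocytes had 370 CPM (346 to 395) with a UMI in 64.0% of cells (median 14455.5 UMIs), and cluster 7 had 272 CPM (254 to 292) with a UMI in 43.7% (median 3067). In AD T cells (22.1 CPM), endothelial cells (18.7 CPM), lymphatic endothelial cells (13.7 CPM) and cluster 13 (33.1 CPM), the level lay close to the dFB RNA estimates of 21.3, 21.8, 15.7 and 23.8 CPM, and the part of that RNA in these values was not tested.

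Within dFBs, HI-AP cells held most of the Ptgs2 UMIs in both libraries and most of the Ptges UMIs in Ctrl (62.1%) but not in AD (17.2%). dFBs were sub-clustered and named from marker lists, partly after the study's terms: hypodermal interstitium adipocyte progenitors (HI-AP, 2588 Ctrl and 1825 AD cells), adipogenesis-regulatory cells (Areg, 127 and 1541), reticular and pre-adipocyte cells (RET/pAd, 1455 and 797), an Acta2/Lrrc15 subset (761 and 6) and follicle mesenchyme (738 and 1), the last 2 being names given here. The names mark resemblance only: the AD RET/pAd sub-cluster 5 was named on Grem1, Cyp26b1 and Lpl, without Cyp4b1 or Icam1. The AD HI-AP sub-cluster 1 (1264 cells) was named on 4 of 8 markers (Dpp4, Col14a1, Sfrp4 and Anxa3), without Mfap5 or Pi16. The study itself marks HI-APs by Mfap5 and Col14a1, and RET/pAds by Cyp4b1 and Icam1. Mostly Ctrl and mostly AD sub-clusters were also named against separate baselines. Ctrl and AD cells of a subset lay in different sub-clusters (HI-AP in 0, 4 and 9 against 1 and 7, Areg in 16 against 3, 11 and 12, RET/pAd in 2, 13 and 17 against 5). HI-AP cells held 90.2% of the Ctrl and 74.3% of the AD dFB Ptgs2 UMIs, at 711 CPM and 1267 CPM (log2 ratio 0.83, 0.80 to 0.86), with a UMI in 54.2% and 52.7% of cells (median 9914.5 and 6770 UMIs). Their Ptgs2 exceeded that of all other dFBs by 3.34 on the log2 scale in Ctrl (3.27 to 3.41) and by 2.41 in AD (2.37 to 2.46). Areg cells had 230 and 340 CPM, and RET/pAd cells 83.5 and 122 CPM.

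Ptges followed the opposite order in AD. RET/pAd cells had 41.4 CPM in Ctrl against 396 CPM in AD, a log2 ratio of 3.26 (3.12 to 3.40) or 9.57-fold, with a UMI in 26.5% of Ctrl cells (median 7253 UMIs) and 67.8% of AD cells (median 10213). After thinning those shares were 4.0% and 22.0%, against 0.439% and 1.49% of T cells. RET/pAd cells held 54.9% of the AD dFB Ptges UMIs. Of the 797 AD RET/pAd cells, 795 were sub-cluster 5, which was named without Cyp4b1 or Icam1 and against a separate baseline. The RET/pAd ratio therefore compares different sub-clusters that share a name. Whether they are the same kind of cell was not tested, so the ratio is not shown to be a change within 1 subset. Areg cells had 69.2 CPM in Ctrl and 144 CPM (log2 ratio 1.05, 0.67 to 1.46) in AD skin, and HI-AP cells 69.3 and 89.3 CPM (0.37, 0.26 to 0.47). The HI-AP level relative to other dFBs was 0.85 on the log2 scale in Ctrl and −1.39 in AD.

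**Figure D4:**
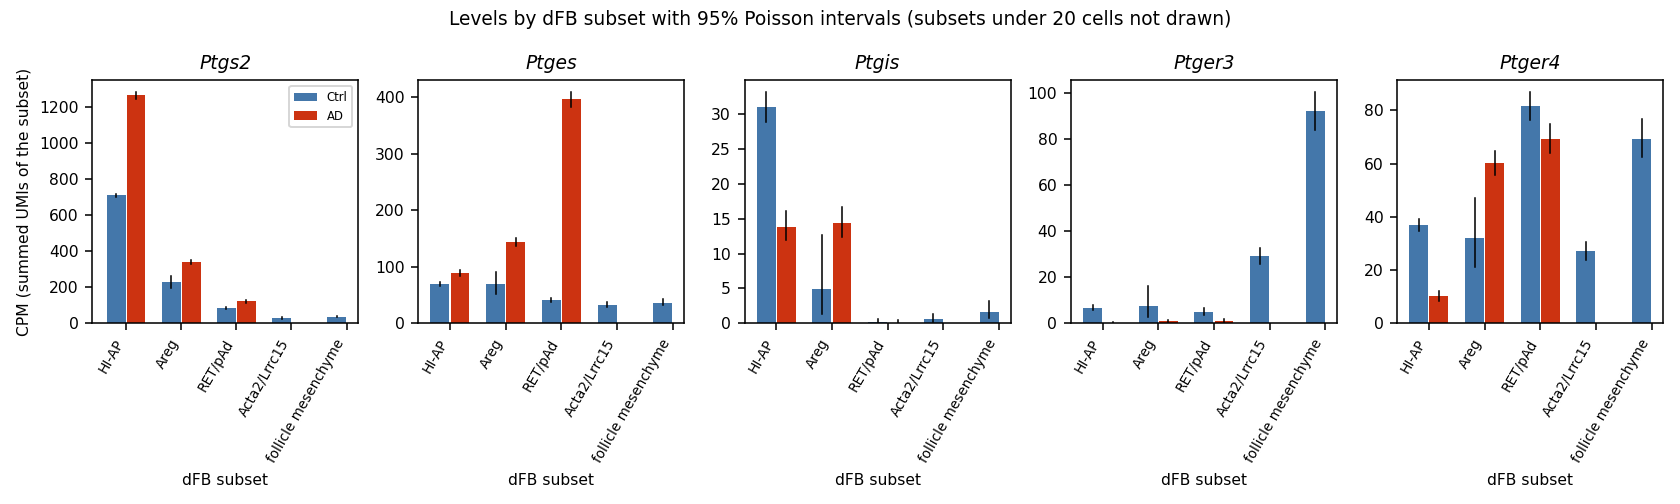
Level in CPM of Ptgs2, Ptges, Ptgis, Ptger3 and Ptger4 in the dFB subsets, Ctrl and AD side by side (bars from 0, with exact 95% Poisson intervals; subsets with under 20 cells in a library have no bar for it). Ptgs2 peaked in HI-AP cells in both libraries, Ptges in AD RET/pAd cells, and Ptger3 in Ctrl follicle mesenchyme.

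The AD HI-AP cells were not alike in Ptgs2. Sub-cluster 7 (560 AD cells, led by Cxcl1, Ptgs2, Ccl2 and Ptx3) had 2838 CPM and sub-cluster 1, also of AD, 476 CPM, while sub-cluster 0 of Ctrl had 1179 CPM. Ptgs2 is a gene that tissue dissociation can induce, so 9 immediate-early genes, chosen after the values were seen, were summed beside it. Their sum was 20704 CPM in Ctrl against 30601 CPM in AD dFBs, and 25093 and 42883 CPM in HI-AP cells. In dFBs and in HI-AP cells, the sum and Ptgs2 were thus both higher in AD. Sub-cluster 7 had a lower sum than sub-cluster 1 (25065 against 51852 CPM) with the higher Ptgs2. Macrophages had a lower sum in AD (13183 against 24911 CPM) with the higher Ptgs2. The part of dissociation in the Ptgs2 values of dFBs, their sub-clusters and macrophages was not tested.

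Ptgis, the prostacyclin synthase, was mostly counted in dFBs, at 15.3 CPM (14.3 to 16.4) in Ctrl skin and 10.2 CPM (9.14 to 11.3) in AD skin, a log2 ratio of −0.60. A UMI was found in 9.47% and 6.10% of dFBs, against 0.423% and 0.159% of T cells. HI-AP cells held 96.1% of the dFB Ptgis UMIs in Ctrl and 48.1% in AD, at 31.0 and 13.9 CPM (log2 ratio −1.16, −1.41 to −0.92). Areg cells had 4 UMIs in Ctrl (4.95 CPM) and 173 in AD (14.4 CPM), a log2 ratio of 1.54 with an interval of 0.16 to 3.43. RET/pAd cells had 2 UMIs in Ctrl and AD cells had 0 in 797 cells. By a floor of 3 counts this limits the share of cells with a UMI to 0.376%, and does not limit the share expressing the gene.

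Ptgds, the lipocalin-type prostaglandin D2 synthase, was a melanocyte gene in these libraries. Melanocytes had 4050 CPM (3906 to 4197, 71 cells) in Ctrl skin and 1389 CPM (1282 to 1502, 123 cells) in AD skin, a log2 ratio of −1.54 (−1.67 to −1.42) or 2.92-fold lower. A UMI was found in 95.8% of Ctrl melanocytes (median 7352 UMIs) and 82.1% of AD melanocytes (median 2820), or 82.6% and 58.1% after thinning, against 2.33% and 0.159% of T cells. dFBs had 3.36 and 0.446 CPM.

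Co-detection asked whether cells with Ptgs2 also carried a terminal synthase more often than dFBs without Ptgs2 at the same depth. Cells with more UMIs show more genes, and Ptgs2-positive dFBs were deeper than the others (median 10413 against 7665 UMIs in Ctrl, and 7327.5 against 6667 in AD), so the share without Ptgs2 was taken over 10 depth bins. The interval of a co-detection ratio is that of the Ptgs2-positive share divided by this share, which was held fixed. Counting error of the negative cells is left out, so these intervals are too narrow. In AD, 872 of 1722 Ptgs2-positive dFBs (50.6%, 48.3 to 53.0) had a UMI of Ptges or Ptgis, against 44.8% of the negative cells at the same depth, a ratio of 1.13 (1.08 to 1.18). With cells thinned to 1000 UMIs the shares were 13.9% and 12.5%, a ratio of 1.11 whose interval of 0.94 to 1.31 includes 1. In Ctrl the shares were 55.3% and 37.4%, a ratio of 1.48 (1.42 to 1.54). All 3 transcripts were seen together in 216 Ctrl dFBs (3.63%) and 72 AD dFBs (1.53%), and none of them in 47.5% and 36.6%.

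The partners differed. Ptgis was found in 21.4% of Ptgs2-positive and 5.03% of negative Ctrl dFBs at the same depth, a ratio of 4.26 (3.89 to 4.64), and in 8.83% and 4.90% in AD, a ratio of 1.80 (1.54 to 2.10). Within Ctrl HI-AP cells, where both genes were concentrated, the ratio for Ptgis was 1.89 (1.73 to 2.06), and within sub-cluster 0 it was 1.1 (1.00 to 1.19). In AD, the ratio within HI-AP cells was 1.74 (1.43 to 2.10), close to that over all dFBs, and it was 2.56 (2.00 to 3.22) within sub-cluster 7. There 434 of 560 cells had a Ptgs2 UMI, so few negative cells stood behind that ratio. For Ptges the ratio was 1.30 (1.23 to 1.36) over Ctrl dFBs and 1.04 (0.98 to 1.09) within Ctrl HI-AP cells, and 1.1 (1.04 to 1.16) over AD dFBs and 1.23 (1.14 to 1.33) within AD HI-AP cells. In AD RET/pAd cells, which carried the most Ptges, 78.4% of Ptgs2-positive and 74.1% of negative cells had it, a ratio of 1.06 (0.96 to 1.14). The cells compared come from 1 library each, so these intervals describe cells and not mice.

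**Figure D5:**
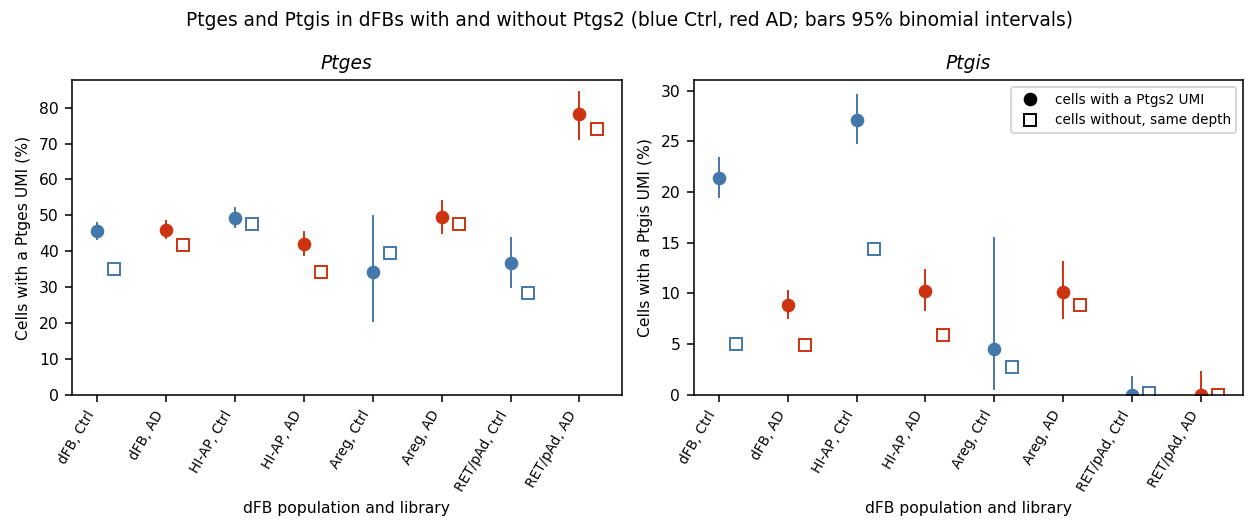
Share of dFBs in percent with a Ptges or a Ptgis UMI among cells with and without a Ptgs2 UMI, the latter at the same depth, for all dFBs and for subsets in each library (bars are exact 95% intervals for the cells with Ptgs2). The gap is widest for Ptgis over all Ctrl dFBs (21.4% against 5.03%) and narrows within Ctrl HI-AP cells.

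Among the prostaglandin E2 receptors, Ptger3 of dFBs showed the lowest AD value relative to Ctrl. It was 19.2 CPM (18.1 to 20.4, 1053 UMIs) in Ctrl skin and 0.726 CPM (0.474 to 1.06, 26 UMIs) in AD skin, a log2 ratio of −4.73 (−5.35 to −4.17) or 26.5-fold lower. A UMI was found in 11.9% of Ctrl and 0.466% of AD dFBs, and in 3.49% and 3.02% of T cells, so the AD dFB share lay under the T cell share. T cells had 12.4 CPM in Ctrl and 6.03 CPM in AD, the latter above the AD dFB level. They are thus no clean background class for Ptger3. Follicle mesenchyme held 47.3% of the Ctrl dFB UMIs of Ptger3, at 92.2 CPM with a UMI in 43.8% of cells (median 6705 UMIs), and the Acta2/Lrrc15 subset had 29.2 CPM. These named subsets were nearly missing from the AD library, with 1 and 6 cells. Cluster 7 (717 AD cells), which was not counted among dFBs, shared the leading genes Prlr, Dkk2 and Prdm1 with follicle mesenchyme sub-cluster 14 of Ctrl. It had 49 Ptger3 UMIs in AD, more than the 26 of all AD dFBs. Whether cluster 7 holds follicle mesenchyme was not tested, so the dFB ratio depends on its being left out. The subsets present in both libraries were also lower in AD, at 6.76 against 0.238 CPM in HI-AP cells (176 and 3 UMIs), 5.03 against 0.990 CPM in RET/pAd cells and 7.42 against 0.831 CPM in Areg cells (6 and 10 UMIs), all under the 10 CPM needed for a call. In AD, Ptger3 was found in adipocytes (31.0 CPM, 24.4 to 38.9, with a UMI in 19.7% of cells), in basophils (36.6 CPM, 20.5 to 60.4), in cluster 7 (16.4 CPM) and in mast cells (9 UMIs in 46 cells). The dFB log2 ratio stayed between −5.32 and −3.24 over 11 alternatives, the smallest when the members were kept in the clustering.

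Ptger4 was the most broadly detected receptor. Dendritic cells had the highest level, 333 CPM (265 to 413) in Ctrl skin and 270 CPM (226 to 320) in AD skin, with intervals that overlapped. Macrophages had 181 CPM (162 to 202) in Ctrl skin and 66.3 CPM (54.5 to 79.8) in AD skin, a log2 ratio of −1.45, and T cells 155 CPM (143 to 169) and 96.8 CPM (87.3 to 107), a log2 ratio of −0.68. A UMI was found in 39.9% of Ctrl and 26.2% of AD macrophages, which are 15.7% and 5.34% after thinning. Lymphatic endothelial cells, taken as the background class after the values were seen because KCs carried the gene themselves, showed 3.62% and 1.90% (median 4424 and 5692 UMIs). Endothelial cells had 56.4 and 17.9 CPM (log2 ratio −1.66), and cluster 13 had 90.2 and 44.5 CPM (−1.02). dFBs differed little, at 47.8 and 43.6 CPM (log2 ratio −0.13), but HI-AP cells had 36.9 CPM in Ctrl and 10.1 CPM (−1.87, −2.15 to −1.60) in AD skin, Areg cells had 32.1 and 60.1 CPM, and RET/pAd cells 81.5 and 69.2 CPM.

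Ptger2 had the fewest UMIs of the 10 genes in Ctrl, at 0.561 CPM over all cells, and stood at 1.90 CPM in AD. Its highest levels with at least 50 cells in both libraries were in macrophages, 7.69 CPM (14 UMIs) in Ctrl skin and 15.5 CPM (26 UMIs) in AD skin, with a log2 ratio of 1.01 (0.02 to 2.06), and in lymphatic endothelial cells, 8.32 and 13.7 CPM, where a UMI was found in 4.18% and 9.49% of cells. Endothelial cells, as the background class, had a UMI in 0.847% and 0.787% of cells (median 5633 and 9145). The macrophage value was under 2-fold when each cell weighed the same (log2 ratio 0.57) or was thinned (0.50).

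In the leukotriene branch, Alox5 and Ltc4s were found mostly in myeloid cells and at under 0.5 CPM in dFBs. Macrophages had 51.7 CPM of Alox5 in Ctrl (41.7 to 63.2) and 29.8 CPM (22.1 to 39.3) in AD skin, a log2 ratio of −0.79, with a UMI in 18.4% and 13.1% of cells, against 0.133% and 0% of KCs (median 14418 and 10012 UMIs). Cluster 13 had 30.5 and 35.3 CPM. The highest Alox5 level was in the 65 AD basophils, 85.4 CPM (59.5 to 119), with a UMI in 27.7% of cells.

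Ltc4s stood at 95.6 CPM in Ctrl macrophages (81.9 to 111) and 112 CPM in AD macrophages (96.2 to 129), a log2 ratio of 0.22, with a UMI in 22.9% and 22.2% of cells, against 0.574% and 0.242% of KCs. Under 4 other definitions of the macrophages it was higher in AD, by 1.63 to 1.83 on the log2 scale. In cluster 13 it was 9.65 CPM (31 UMIs) in Ctrl skin and 211 CPM (182 to 244, 185 UMIs) in AD skin, a log2 ratio of 4.45, and the 10 highest AD cells held 95.7% of those UMIs. No other definition of cluster 13 was read. AD adipocytes had 55.0 CPM of Ltc4s, with a UMI in 29.2% of cells. Mast cells, a classical leukotriene source, had an Ltc4s UMI in 0 of 138 Ctrl cells and in 1 of 46 AD cells, at median depths of 1656 and 2504 UMIs. The floor of 3 counts limits the Ctrl share of cells with a UMI to 2.17% and says nothing of expression below that depth. Their Alox5 UMIs numbered 5 and 1.

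Of a list of 36 other genes of the pathway, 34 were found by symbol in the files (all but Fam213b and Dpep2) and were read in the same classes. In dFBs, 14 of the 34 reached 10 CPM, with 1 higher and 4 lower in AD, where 7.35% of all genes were higher and 15.1% lower, and their median log2 ratio was 0.06 against −0.12 over all genes. The higher gene was Ptgir, the prostacyclin receptor (6.76 and 41.8 CPM, 2.63). The lower genes were Hpgd, which inactivates prostaglandins (120 and 16.8 CPM, −2.83), Ptgfr, the prostaglandin F receptor (100 and 20 CPM, −2.33), Tbxa2r, the thromboxane receptor (13.2 and 0.614 CPM, −4.43), and Ptgr1, a prostaglandin reductase (16.9 and 4.49 CPM, −1.91). Hpgd and Ptgfr were among the leading genes of HI-AP sub-cluster 4 (795 Ctrl and 1 AD cells). Ptgfr also led dFB cluster 0 (2132 Ctrl and 1 AD cells). The part of such nearly Ctrl-only populations in the dFB ratios was not tested. Ptges3, the cytosolic prostaglandin E synthase, stood at 196 and 205 CPM and the prostaglandin transporter Slco2a1 at 113 and 162 CPM.

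In KCs, 16 of the 34 reached 10 CPM, with 1 higher and 6 lower (6.05% and 12.4% of all genes) and a median of −0.73 against −0.14 over all genes. Among the lower ones were the epidermal lipoxygenases Alox12b (24.8 and 1.05 CPM) and Aloxe3 (11.5 and 3.50 CPM) and the phospholipases Pla2g2f (142 and 53.3 CPM) and Pla2g4a (33.0 and 9.11 CPM), while Hpgd was higher (9.99 and 31.0 CPM). These KC values pool the layers, and suprabasal cells numbered 505 in Ctrl and 42 in AD. Basal KCs alone were not read for these genes, and the part of the layers was not tested. In macrophages, 17 of the 34 reached 10 CPM, with 2 higher and 7 lower (7.73% and 14.7% of all genes). Their median was −0.66 against −0.11 over all genes. Ltb4r1, the leukotriene B4 receptor, was higher (2.75 and 32.8 CPM), as was Pla2g4a, which releases arachidonic acid (22.5 and 52.5 CPM). Hpgd (138 and 4.18 CPM), Hpgds, the hematopoietic prostaglandin D synthase (137 and 38.8 CPM), Tbxas1, the thromboxane synthase (59.9 and 22.1 CPM), and the leukotriene receptor Cysltr1 (70.3 and 20.3 CPM) were lower. So were the phospholipase Pla2g2d (136 and 0 CPM), Ggt5 (53.3 and 11.9 CPM) and Ptgr1 (24.7 and 8.95 CPM). Alox5ap, which presents arachidonic acid to 5-lipoxygenase, stood at 439 and 478 CPM. In cluster 13, 20 reached it, with 5 higher and 3 lower (8.83% and 9.23% of all genes) and a median of 0.10 against 0.07.

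The genes most like each member across 26 class and library values were read as Pearson's r of log2(CPM + 10), among 8268 genes. The points share their library and its depth, and no p is given. Alox5 was most like Lilrb4a (r = 0.978) and Lilrb4b (0.966), with Alox5ap next (0.963), and Ltc4s most like Cd14 (0.896). Ptgds was most like Dct (0.988), an enzyme of melanin synthesis. Ptgs2 was most like the adenosine receptor gene Adora2b (0.844), followed by Clec4e (0.830) and the decoy receptor gene Il1r2 (0.828). Ptges was most like Irx1 (0.876) and Irx2 (0.845), Ptger4 like Nfkb1 (0.807), Ptgs1 like Cmtm8 (0.727), and the low members Ptgis, Ptger2 and Ptger3 like Sfrp4 (0.819), Slfn2 (0.779) and Pygl (0.697).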

How the data were processed

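Each library was sequenced with the 10x Chromium 3′ v3.1 chemistry. The deposited values are raw UMI counts per gene and barcode, which the authors made with Cell Ranger. Its version is given as 5.0.0 in the matrix headers, 6.0.0 in the methods (with an mm10 reference) and 3.1.0 in the submitters' processing notes, and which of them made the files was not settled. A 3′ kit reads transcript ends, so isoforms are not told apart, and levels of different genes were compared only as captured transcripts. The members, the gene lists and the rules were chosen with earlier results of these data known.

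Barcodes were kept as in the methods, between 200 and 6000 detected genes with no more than 10% of UMIs from mitochondrial genes. With scanpy 1.11.5 in Python 3.11.15, counts were scaled to 10000 per cell and logged, 2000 variable genes without the members and the pathway list were scaled (limit 10), and 30 components, 20 neighbours and Leiden clustering (leidenalg 0.10.2, resolution 1, seed 0) gave the clusters. A cluster could be named when at least 3 markers of a type were in 10% of its cells and 2-fold over the lower quartile of clusters. The type with the highest summed log2 excess was taken, unless the leading genes held more markers of another. Near ties and leading genes of another type left a cluster unnamed, as could low depth. For dFB subsets the quartile was taken separately over mostly Ctrl and mostly AD sub-clusters, so subsets of the same name had different baselines. Doublets were left in: Scrublet called 395 of 11399 Ctrl cells and 0 of 8179 AD cells. UMIs were summed per class and library, and no test was run with 1 library a group. Planned for naming were all members in each class, pathway genes past 2-fold or highest in their step, and each member's 3 most alike genes. The text gives only some of these, so a gene that is not named is not thereby within 2-fold. A ratio with under 3 UMIs in a group used 3. The dFB RNA estimate is the median over 7 dFB markers of their level in a class relative to dFBs, multiplied by the member's dFB level. Steps were tested on simulated data. The alternatives were other cell filters, resolutions, gates, scalings and depths. Promoters came from RefSeq, GRCm38.p6.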

Additional observations from a re-analysis of the deposited data

Results flagged for a closer look

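Ptgs1 had opposite directions in cell classes under the same contrast of AD against Ctrl. Its log2 ratio was −3.16 in KCs and −2.43 in macrophages, and 2.00 in cluster 13. The difference between these classes was not tested, since each class had 1 sample per group. The KC value rests on 3634 Ctrl and 68 AD UMIs, the macrophage value on 35 and 6, and in cluster 13 the 10 highest AD cells held 100% of the 61 UMIs. Of the Ctrl KC UMIs, 3390 came from 505 suprabasal cells, of which AD had 42. Basal KCs alone had 19.5 CPM in Ctrl and 6.52 CPM in AD.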

How the results depend on the processing

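No paired analysis was possible because each group was 1 library and no test was run. Ptges higher and Ptger3 lower in AD dFBs held under all 11 alternatives, and Ptgs1 joined as lower when each cell weighed the same or was thinned, which made 3 genes. The log2 ratio of Ptgs2 in dFBs, 0.68, was 0.80 with all deposited barcodes, 0.60 with at least 500 genes and 1000 UMIs per cell, 0.59 at resolution 2.0, 0.61 with each library clustered alone, 0.60 without the top 6% of Scrublet scores (chosen after seeing the data, since Scrublet called 0 AD cells, so the planned Scrublet alternative was not run), 0.64 with the members kept in clustering, 0.57 with a per-cell marker gate, 0.93 as a mean of each cell's own CPM, 0.73 with median-of-ratios scaling and 0.96 thinned. The AD log2 ratio of Ptgs2 in HI-AP over other dFBs, 2.41, was in the same order of settings 2.62 (stricter filter), 2.49 (resolution 2.0), 2.71 (alone), 2.66 (Scrublet scores), 2.89 (members kept), 1.77 (gate), 1.87 (own CPM) and 2.06 (thinned), and 2.57 at resolution 0.5. The co-detection ratio of 1.13 stayed between 1.09 and 1.14. The other ratios were read again under each alternative in which they could be formed, which gave 453 readings over the 11 alternatives. Of these readings, 406 kept their side of 2-fold and 47 changed it. Among those past 2-fold in the main setting, 6 reversed: Ptgs1 in macrophages (0.49 with all barcodes, 0.53 at resolution 0.5, 0.42 with libraries alone, 0.53 without the top Scrublet scores), Ptger3 in cluster 13 (1.30 thinned) and Ptges in endothelial cells (−0.62 without the top Scrublet scores). Ratios under 2-fold in the main setting were not counted here, and some also changed sign. Examples are Ptgs2 in pericytes and VSMCs (−0.63, and 2.27 with the per-cell gate) and in T cells (0.58, and −1.29 at resolution 2.0). Ptgs1 in KCs (−3.44 to −1.69), Ptges in dFBs (1.46 to 1.90), Ptger3 in dFBs (−5.32 to −3.24) and Ptgs2 in macrophages (2.20 to 4.57, smaller with other definitions of the cells) kept their side under all 11. The cause was not tested. Cluster 13 is a number of the main clustering, so its called ratios were read under 3 alternatives only. None of those defined the cells anew. The scaling shifted all genes by −0.13 to 0.06 across classes. Depth limits Ptger2, Alox5, Ltc4s and Ptgis, and 1 library per group limits every ratio.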
